A study of Neurospora crassa with 6 samples.

Results

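*nmt-1* (NCU09345) and NCU06110 are the genes for the enzymes that make the pyrimidine and the thiazole ring of thiamine, vitamin B1, in *Neurospora crassa*. *nmt-1* was chosen by its read count, as the most read gene in vegetative hyphae. In hyphae of the wild type it had 134137 reads against 84111 for the next gene, *ccg-14*. NCU06110 was chosen as the gene for the other ring. Both genes are among the 9872 entries of an RNA-seq table that covers mutants lacking *mak-1* or *mak-2* (Δ*mak-1*, Δ*mak-2*) and the wild type. Each strain was sampled at the initial protoperithecial stage (3.5 days in darkness at 25°C, on cellophane laid over a crossing medium that held 0.1% sucrose) and as vegetative hyphae (22 h of shaking in Vogel's liquid medium at 28°C). The strains were stocks of the Fungal Genetics Stock Center, each mutant being 1 deletion strain that lacks a MAP kinase gene, *mak-1* of the cell wall integrity pathway or *mak-2* of the pheromone response pathway. Neither mutant forms normal protoperithecia, the young female structures of this fungus. RNA from 3 repeats went into each library as a mixture, so each of the 6 conditions has 1 library. No spread between cultures can be estimated, and the intervals given are 95% intervals that cover counting error only. Medium, surface, temperature and age changed together with the stage, and their parts cannot be told apart.

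Thiamine is built from a pyrimidine and a thiazole that are made separately and then joined. NMT-1 belongs to the family of yeast Thi5, which forms the pyrimidine from pyridoxal phosphate (vitamin B6) and a histidine of its own chain, and the product of NCU06110 belongs to the family of yeast Thi4, which gives a sulfur from its own cysteine to the thiazole. In yeast both proteins are used up by the reaction, so that a new protein is needed for each molecule made. In *N. crassa* both genes, and also NCU01977, carry in an intron near the 5′ end of the transcript a riboswitch, an RNA element that binds thiamine diphosphate and alters splicing. The active form of the vitamin, thiamine diphosphate, is the cofactor of pyruvate decarboxylase, transketolase, the pyruvate and 2-oxoglutarate dehydrogenases and acetolactate synthase. The RefSeq annotation of assembly NC12 gives the symbol *thi-4* to a different locus, NCU07849, so the thiazole synthase gene is called NCU06110 here.

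The libraries held between 2602076 and 3668046 mapped reads. The deleted genes followed the labels, since *mak-2* had 0 reads in both Δ*mak-2* libraries and *mak-1* had 52 and 50 reads (6.08 and 6.39 RPKM) in the Δ*mak-1* libraries of the protoperithecial stage and of vegetative hyphae, against wild-type levels of 148 and 42.1 RPKM. The summed level of 3 protoperithecial genes, *poi-2*, *app* and *per-1*, was 15.1 RPKM in Δ*mak-1* and 17.8 RPKM in Δ*mak-2* at the protoperithecial stage, against 2915 RPKM in the wild type, and 3.14 to 50.2 RPKM in the vegetative libraries. The summed level of 3 conidiation genes, *con-6*, *con-10* and *eas*, was 13885 and 15346 RPKM in Δ*mak-1* and in Δ*mak-2* at the protoperithecial stage, against 507 RPKM in the wild type. In vegetative hyphae this sum was 2512, 47065 and 874 RPKM in Δ*mak-1*, Δ*mak-2* and the wild type, of which *eas* gave 2504, 47036 and 703 RPKM. The other conidiation genes were lower in mutant hyphae, *con-6* with 4.05, 15.3 and 64.5 RPKM and *con-10* with 3.70, 13.6 and 106 RPKM in the same order. The mutant libraries labelled as protoperithecial stage thus carried little of these 3 protoperithecial genes and much of the conidiation genes. The paper lists *poi-2*, *app* and *per-1* as regulated by both MAK-1 and MAK-2, so their low levels cannot show the stage of the mutant cultures. It lists *eas* as regulated by both kinases too, with higher levels in the mutants, so the same holds for *eas*. On Vogel's agar the paper saw fewer conidia in both mutants than in the wild type. The part of these marker differences in the results for *nmt-1* and NCU06110 was not tested.

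*nmt-1* was among the most abundant transcripts of growing hyphae and was lower at the protoperithecial stage in every strain. Levels are in RPKM as deposited, which scales reads to exon length and to the number of reads mapped in the library. At the protoperithecial stage *nmt-1* had 2234 RPKM in Δ*mak-1*, 2663 RPKM in Δ*mak-2* and 5635 RPKM in the wild type. In vegetative hyphae it had 19652 RPKM in Δ*mak-1*, 22383 RPKM in Δ*mak-2* and 19721 RPKM in the wild type. The 3 vegetative libraries lay close together and far above the 3 protoperithecial ones, among which the mutants were the lowest. In order, the level was highest in Δ*mak-2* hyphae, then wild-type hyphae, Δ*mak-1* hyphae, the wild type, Δ*mak-2* and Δ*mak-1* at the protoperithecial stage, and only wild-type and Δ*mak-1* hyphae, neighbours in this order, did not differ beyond counting error. Behind these levels stood 21423, 23471 and 48620 reads at the protoperithecial stage and 172525, 167706 and 134137 reads in vegetative hyphae, in Δ*mak-1*, Δ*mak-2* and the wild type in that order.

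**Figure D1:**
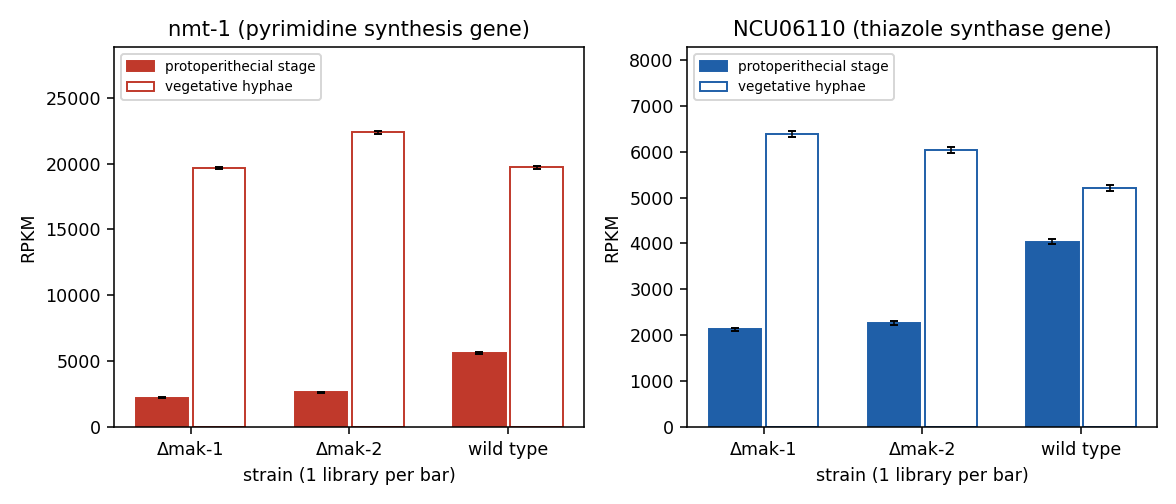
Level of *nmt-1* (left) and NCU06110 (right) in RPKM, on linear axes from 0, in Δ*mak-1*, Δ*mak-2* and the wild type, with the protoperithecial stage filled and vegetative hyphae open. Each bar is 1 library and the whiskers are 95% counting intervals; *nmt-1* was at 2234 to 5635 RPKM at the protoperithecial stage and at 19652 to 22383 RPKM in hyphae, and NCU06110 was lowest in the mutants at the protoperithecial stage.

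The *nmt-1* transcript took 0.584% of all mapped reads in Δ*mak-1*, 0.696% in Δ*mak-2* and 1.47% in wild type at the protoperithecial stage. In vegetative hyphae it took 5.14%, 5.85% and 5.155% of the mapped reads in the same order of strains. It was the most read entry in all 3 vegetative libraries, including both mutant libraries. The gene was chosen for its count in vegetative hyphae, and earlier results of these data were known. This place is therefore a description in every strain. The second most read entry had 60590 reads in Δ*mak-1* hyphae (*cfp*) and 102194 reads in Δ*mak-2* hyphae (*eas*). Per length, *nmt-1* ranked 1 in Δ*mak-1* hyphae, 4 in Δ*mak-2* hyphae and 5 in wild-type hyphae, against 37, 32 and 8 in the same strains at the protoperithecial stage. At that stage the most read entry was *tef-1*, a translation elongation factor gene, in all 3 strains, and *nmt-1* was in place 8, 7 and 4 by reads.

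NCU06110, the thiazole synthase gene, was less abundant and less spread over the libraries. At the protoperithecial stage it had 2130 RPKM (13717 reads) in Δ*mak-1*, 2267 RPKM (13422 reads) in Δ*mak-2* and 4042 RPKM (23431 reads) in the wild type. In vegetative hyphae it had 6388 RPKM (37676 reads) in Δ*mak-1*, 6035 RPKM (30378 reads) in Δ*mak-2* and 5201 RPKM (23763 reads) in the wild type. The mutants were thus above the wild type in hyphae and below it at the protoperithecial stage, and every step in the order of its 6 levels was larger than counting error. Its share of the mapped reads was 0.374%, 0.398% and 0.710% at the protoperithecial stage, and 1.12%, 1.06% and 0.913% in hyphae, in Δ*mak-1*, Δ*mak-2* and the wild type in that order. By RPKM it ranked between 10 and 22 in the vegetative libraries, 15 in wild type at the protoperithecial stage, and 41 and 46 in Δ*mak-1* and in Δ*mak-2* at that stage.

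The ratio between the stages asks how the transcripts differed between protoperithecial cultures and growing hyphae. A gene was called changed if its level passed 10 RPKM in at least 1 of both libraries and its ratio lay outside 0.5 to 2. The ratio of *nmt-1* at the protoperithecial stage over vegetative hyphae was 0.114 (0.112 to 0.115) in Δ*mak-1*, 0.119 (0.117 to 0.121) in Δ*mak-2* and 0.286 (0.283 to 0.289) in the wild type. *nmt-1* was therefore called lower in all 3 strains, a call that 9.48%, 9.41% and 10.3% of the entries tested received in the same order. These ratios share their vegetative libraries with the choice of the gene. With earlier results of these data also known, the ratios are descriptions in every strain. Of the entries tested, 1.27%, 1.97% and 5.57% had a lower ratio than *nmt-1* in Δ*mak-1*, Δ*mak-2* and the wild type. In bulk RNA, fewer cells that express the gene and less RNA per cell cannot be told apart.

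The ratio of NCU06110 at the protoperithecial stage over vegetative hyphae was 0.333 (0.327 to 0.340) in Δ*mak-1*, 0.376 (0.368 to 0.383) in Δ*mak-2* and 0.777 (0.763 to 0.791) in the wild type. The gene was called lower in both mutants and was not called in the wild type. The median ratio of all entries tested was above 1 in each strain, 1.42 in Δ*mak-1*, 1.69 in Δ*mak-2* and 1.86 in the wild type. Relative to that median, *nmt-1* was at 0.0799, 0.0706 and 0.153, and NCU06110 at 0.234, 0.223 and 0.417, in the same order of strains. With libraries scaled by the median of ratios in place of mapped reads, the wild-type ratio of NCU06110 was 0.444 and passed the threshold.

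**Figure D2:**
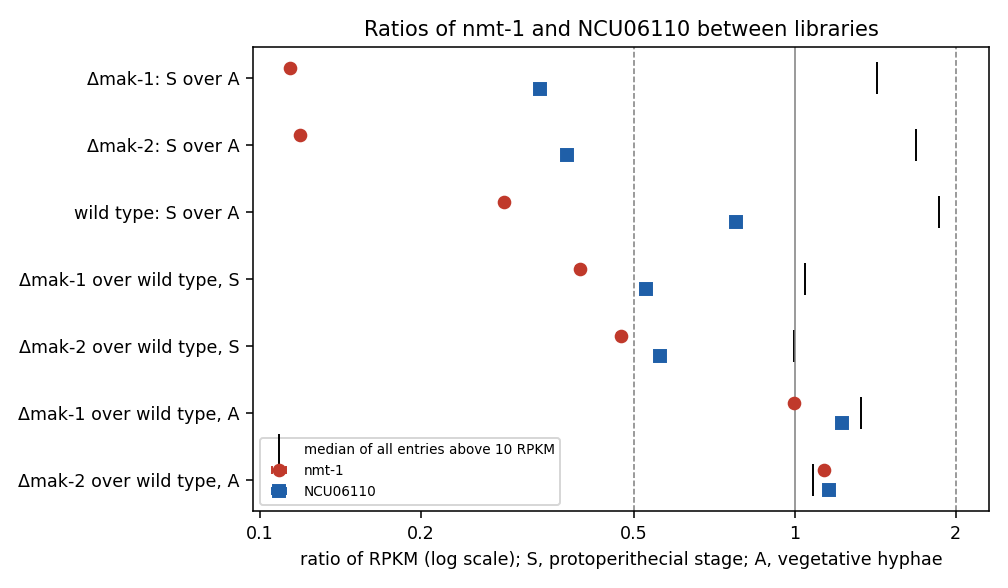
Ratio of RPKM between libraries, on a log axis, for *nmt-1* (circles) and NCU06110 (squares) in the 7 comparisons of stages and of each mutant with the wild type; dashed lines mark ratios of 0.5 and 2, and the 95% counting intervals are narrower than the symbols. Black ticks are the median of all entries tested, which lay above 1 for the stages, while *nmt-1* lay between 0.114 and 0.286 there.

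Both genes stood lower in the mutants than in wild type at the protoperithecial stage. The ratio of *nmt-1* in the mutant over the wild type was 0.397 (0.390 to 0.403) for Δ*mak-1* and 0.473 (0.465 to 0.480) for Δ*mak-2*. Both ratios were called lower, as were 8.35% of the entries tested for Δ*mak-1* and 10.7% for Δ*mak-2*. The ratio of NCU06110 was 0.527 (0.516 to 0.538) for Δ*mak-1* and 0.561 (0.549 to 0.573) for Δ*mak-2*, just short of the threshold. With the median of ratios the Δ*mak-1* value of NCU06110 was 0.490 and passed it. The median ratio of all entries was 1.05 for Δ*mak-1* and 0.998 for Δ*mak-2*. These comparisons share the wild-type library, so they are not independent of each other. The differences stand beside those of the marker genes, the conidiation sum being higher and the protoperithecial sum lower in both mutants, and the part of these in them was not tested.

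In vegetative hyphae neither gene was called in either mutant. The ratio of *nmt-1* over the wild type was 0.997 (0.989 to 1.004) in Δ*mak-1* hyphae and 1.135 (1.13 to 1.14) in Δ*mak-2* hyphae. That of NCU06110 was 1.23 (1.21 to 1.25) in Δ*mak-1* hyphae and 1.16 (1.14 to 1.18) in Δ*mak-2* hyphae. In this comparison 18.5% of the entries tested were called higher and 6.77% lower in Δ*mak-1* hyphae, and 7.26% were called higher and 6.41% lower in Δ*mak-2* hyphae. The higher level of NCU06110 in Δ*mak-1* hyphae depended on the scaling, since its ratio was 0.937 with the median of ratios and 0.826 relative to β-tubulin. With the same scalings *nmt-1* in Δ*mak-1* hyphae was at 0.760 and 0.670 of the wild type.

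The stage ratio of *nmt-1* in Δ*mak-1* was 0.398 (0.391 to 0.405) of that in the wild type, and that in Δ*mak-2* was 0.416 (0.409 to 0.424) of it. For NCU06110 these values were 0.429 (0.418 to 0.440) and 0.483 (0.470 to 0.497). The fall between the stages was thus larger in the mutants than in the wild type for both genes, beyond counting error. It was also larger relative to β-tubulin, where the Δ*mak-1* values were nearer to 1, at 0.616 for *nmt-1* and 0.664 for NCU06110, and the Δ*mak-2* values were 0.353 and 0.409. Between the mutants, at the protoperithecial stage, *nmt-1* in Δ*mak-1* was at 0.839 (0.824 to 0.855) of its level in Δ*mak-2* and NCU06110 at 0.939 (0.917 to 0.962). In hyphae the same ratios were 0.878 (0.872 to 0.884) for *nmt-1* and 1.06 (1.04 to 1.07) for NCU06110. None of these passed the threshold by mapped reads, which 7.31% of entries passed upwards and 3.05% downwards at the protoperithecial stage, and 15.8% and 6.51% in hyphae. Relative to β-tubulin the hyphal ratios were 0.498 for *nmt-1*, past the threshold, and 0.600 for NCU06110, on the other side of 1.

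The balance between the transcripts differed with the stage. The RPKM level of *nmt-1* divided by that of NCU06110 was 1.05 (1.03 to 1.07) in Δ*mak-1*, 1.17 (1.15 to 1.20) in Δ*mak-2* and 1.39 (1.37 to 1.42) in wild type at the protoperithecial stage. In vegetative hyphae it was 3.08 (3.04 to 3.11), 3.71 (3.66 to 3.75) and 3.79 (3.74 to 3.84) in the same order of strains. The pyrimidine gene was thus well above the thiazole gene in hyphae and near it at the protoperithecial stage, and scaling between libraries does not enter this ratio. Together the 2 genes took 0.958%, 1.09% and 2.18% of the mapped reads at the protoperithecial stage and 6.26%, 6.91% and 6.07% in hyphae, in Δ*mak-1*, Δ*mak-2* and the wild type in that order.

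The ratio of *nmt-1* was set beside those of other abundant transcripts of hyphae. Each set was taken as the entries above 1000 RPKM in the hyphae of that strain, and entries chosen for a high level in the hyphal library are favoured to be lower in the other library, so the counts describe these sets and test nothing. In Δ*mak-1* 53 of 132 such entries were called lower (9.48% of all entries), the median ratio was 0.742 and 20 had a lower ratio than *nmt-1*. In Δ*mak-2* 63 of 144 were called lower (9.41% of all entries), the median was 0.627 and 29 had a lower ratio than *nmt-1*. In the wild type 70 of 140 were called lower (10.3% of all entries) and 5 higher, the median was 0.483 and 58 had a lower ratio than *nmt-1*. *nmt-1* was thus below the median of each strain's own set. Among the 10 entries with the highest RPKM in wild-type hyphae, again chosen on the hyphal library, 9 were called lower in each strain, and 7 of the 9 other than *nmt-1* had a lower ratio than it in the wild type. They included the clock-controlled genes *ccg-14* and *ccg-13*, with ratios of 0.00387 and 0.00376, and *cfp*, the pyruvate decarboxylase gene, with 0.0280. The ratio of *gpd-1*, the glyceraldehyde-3-phosphate dehydrogenase gene, was 0.239, 0.223 and 0.305 in Δ*mak-1*, Δ*mak-2* and the wild type, against 0.114, 0.119 and 0.286 for *nmt-1*.

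**Figure D3:**
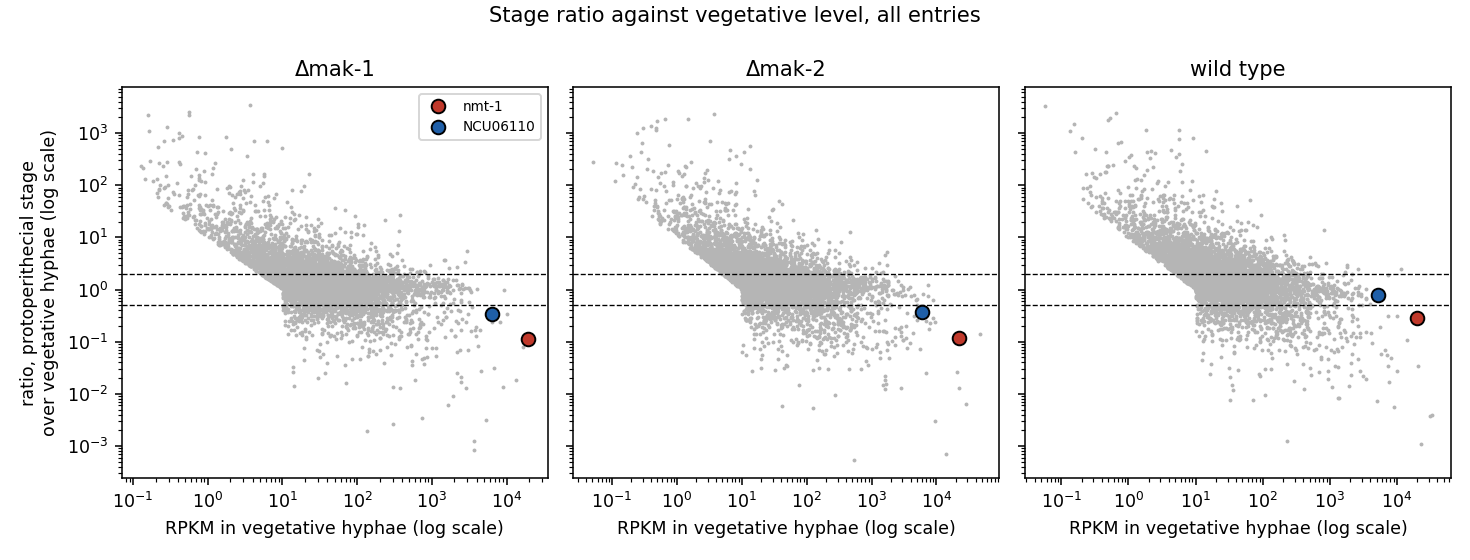
Ratio of RPKM at the protoperithecial stage over vegetative hyphae against the RPKM in vegetative hyphae, both on log axes, for every entry above 10 RPKM in at least 1 of the 2 libraries and above 0 in both, in Δ*mak-1*, Δ*mak-2* and the wild type; the dashed lines mark ratios of 0.5 and 2. *nmt-1*, with ratios of 0.114, 0.119 and 0.286 in that order, sits at the right edge of each panel, NCU06110 lies above it, and the slanted lower left edge comes from the 10 RPKM minimum.

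There were 6 genes named for thiamine, 5 by their deposited annotation and NCU01977 because of its riboswitch. Between the stages 0 of the 6 were called higher and 4 lower in Δ*mak-1* (median ratio 0.351), where 32.6% of all entries were called higher and 9.48% lower. In Δ*mak-2* 0 were higher and 3 lower (0.553), beside 41.4% and 9.41% of all entries, and in the wild type 0 were higher and 2 lower (0.665), beside 46.5% and 10.3%. With the median of ratios 5 of the 6 were lower in each strain, so that the strains did not differ in this count. This scaling lowers every stage ratio of a strain by the same factor. The shares over all entries given here are by mapped reads, so this count has no share to be set against. Both members are among the genes called lower in the mutants, but only *nmt-1* of them in the wild type. Without *nmt-1* and NCU06110, 0 of the other 4 were higher in any strain. Of these 4, 2 were lower in Δ*mak-1*, 1 in Δ*mak-2* and 1 in the wild type. Their median ratio was 0.465 in Δ*mak-1*, 0.739 in Δ*mak-2* and 0.666 in the wild type, beside medians over all entries of 1.42, 1.69 and 1.86. The mutant over the wild type at the protoperithecial stage gave 0 higher and 1 lower for Δ*mak-1* (median 0.813), beside 11% and 8.35% of all entries, and 1 higher and 1 lower for Δ*mak-2* (0.961), beside 8.56% and 10.7%. In hyphae 1 was higher and 0 lower for Δ*mak-1* (1.09), beside 18.5% and 6.77% of all entries, and 0 were called for Δ*mak-2* (1.20), beside 7.26% and 6.41%. The counts for the mutants over the wild type are too small to be set apart from these shares.

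NCU01977, the third riboswitch gene, is listed in the deposited table under the older locus tag NCU11204. At the protoperithecial stage it had 224 RPKM in Δ*mak-1*, 214 RPKM in Δ*mak-2* and 183 RPKM in the wild type. In hyphae it had 609 RPKM in Δ*mak-1*, 293 RPKM in Δ*mak-2* and 235 RPKM in the wild type. Δ*mak-1* hyphae stood apart, with a ratio of 2.59 (2.42 to 2.79) over the wild type, which passed the threshold, although it did not with the median of ratios (1.98) or relative to β-tubulin (1.74), scalings chosen for this gene after the data were seen. Its stage ratio was 0.368 in Δ*mak-1*, 0.731 in Δ*mak-2* and 0.779 in the wild type, so that it was called lower in Δ*mak-1* alone by mapped reads. With the median of ratios it was at 0.256, 0.434 and 0.444 and lower in all 3 strains, and relative to β-tubulin at 0.387, 0.421 and 0.529. At the protoperithecial stage it was not below the wild type in either mutant, unlike *nmt-1* and NCU06110.

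*pdx-1* encodes the synthase of pyridoxal phosphate, from which the pyrimidine is made, and the table annotates it to thiamine synthesis. It had 460 RPKM in Δ*mak-1*, 1248 RPKM in Δ*mak-2* and 539 RPKM in wild type at the protoperithecial stage, against 1533, 3496 and 2122 RPKM in hyphae of the same strains. It was called lower between the stages in all 3 strains, with ratios of 0.300, 0.357 and 0.254. *pdx-2*, the gene of the glutaminase that works with PDX-1, had 53.5, 169 and 47.1 RPKM at the protoperithecial stage and 129, 217 and 183 RPKM in hyphae, in the same order. At the protoperithecial stage both were above the wild type in Δ*mak-2*, *pdx-1* with a ratio of 2.31 (2.20 to 2.43) and *pdx-2* with 3.59 (3.04 to 4.25), where *nmt-1* was below it. In Δ*mak-1* the ratios were 0.853 and 1.14, and neither was called.

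The locus with the RefSeq symbol *thi-4*, NCU07849, and NCU11173, both annotated to thiamine metabolism, were far below *nmt-1* and NCU06110 in every library. NCU07849 had 19.4, 18.9 and 25.1 RPKM at the protoperithecial stage and 34.5, 25.3 and 45.5 RPKM in hyphae of Δ*mak-1*, Δ*mak-2* and the wild type. NCU11173 had 47.5, 46.4 and 36.6 RPKM at the protoperithecial stage and 24.6, 30.0 and 20.8 RPKM in hyphae. Neither passed the threshold between the stages by mapped reads. With the median of ratios NCU07849 was lower in all 3 strains, at 0.391, 0.443 and 0.316, and NCU11173 was at 1.34, 0.920 and 1.01, so that its direction in Δ*mak-2* depended on the scaling. Relative to β-tubulin NCU11173 was at 2.03 in Δ*mak-1*, past the threshold.

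**Figure D4:**
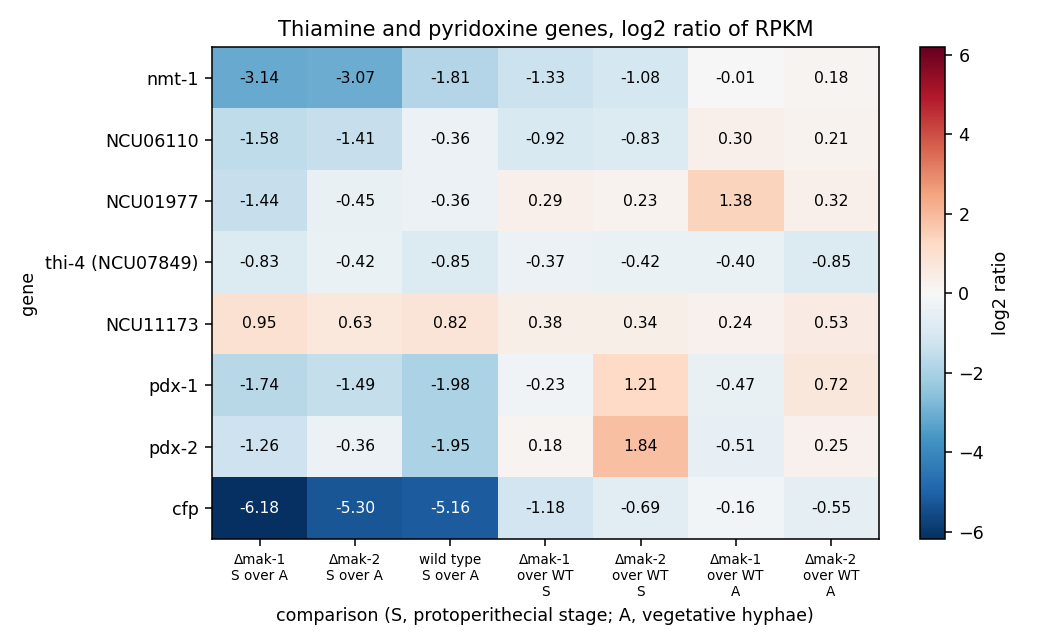
Log2 ratio of RPKM in 7 comparisons (columns) for the 6 genes named for thiamine, *pdx-2* and the pyruvate decarboxylase gene *cfp* (rows), with blue for lower and red for higher. *nmt-1* and NCU06110 are lower in the first 5 columns, whereas *pdx-1* and *pdx-2* are higher in Δ*mak-2* than in wild type at the protoperithecial stage.

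Among 7 entries annotated as enzymes that use thiamine diphosphate or as their subunits, only the pyruvate decarboxylase gene *cfp* had a lower stage ratio than *nmt-1* in each strain. *cfp* had 124 RPKM in Δ*mak-1*, 174 RPKM in Δ*mak-2* and 281 RPKM in wild type at the protoperithecial stage, against 9011, 6849 and 10043 RPKM in hyphae. Its stage ratios were 0.0138, 0.0254 and 0.0280. In Δ*mak-1* 1 of the 7 was called higher and 2 lower, with a median ratio of 0.797, beside 32.6% and 9.48% of all entries. In Δ*mak-2* 1 was higher and 1 lower, with a median of 1.37, beside 41.4% and 9.41%. In the wild type 2 were higher, NCU01328 (transketolase) with 3.66 and *ace-2* (pyruvate dehydrogenase) with 2.68, *cfp* was lower, and the median was 0.897, beside 46.5% and 10.3%. With the median of ratios *ace-2* in the wild type was at 1.53 and NCU01328 in Δ*mak-2* at 1.40, neither of them called, whereas *ilv-4* (0.448) and *ilv-5* (0.415) were lower in the wild type. The calls other than that of *cfp* were few, and some of them changed with the scaling. Others stood both with the median of ratios and relative to β-tubulin. These were NCU01328 in the wild type (2.09 and 2.48) and, in Δ*mak-1*, NCU07982 (2.16 and 3.26) and *ilv-5* (0.259 and 0.391).

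The profiles over the 6 libraries were compared by the root mean square distance between log2(RPKM + 1) values, each gene centred on its own mean, over 6731 other entries above 10 RPKM in at least 1 library. The entry nearest to *nmt-1* was *pgk*, the phosphoglycerate kinase gene, at a distance of 0.130. *pgk* had 258 RPKM in Δ*mak-1*, 322 RPKM in Δ*mak-2* and 712 RPKM in wild type at the protoperithecial stage, against 2024, 3040 and 2576 RPKM in hyphae. The next were NCU01038 (0.225), NCU06719 (0.231), *emp-6* (0.235) and NCU07915 (0.262), which lies next to *pgk* on NC12 with no overlap in the annotation. The nearest to NCU06110 were NCU08889 (0.133), NCU03747 (0.169), NCU07977 (0.182), the methionine synthesis gene *met-5* (0.190) and *fba*, the fructose-bisphosphate aldolase gene (0.191). NCU08889, NCU07977 and NCU01038 had low levels, at most 14.7, 10.4 and 10.3 RPKM in any library. *nmt-1* and NCU06110 were 0.791 apart, NCU06110 being in place 224 from *nmt-1* and *nmt-1* in place 1611 from NCU06110. By Pearson correlation, which leaves out the size of the changes, they were at 0.973. NCU06110 was then in place 48 from *nmt-1* and *nmt-1* in place 14 from NCU06110. Their profiles thus shared the order of the stages and differed in the size of the fall.

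**Figure D5:**
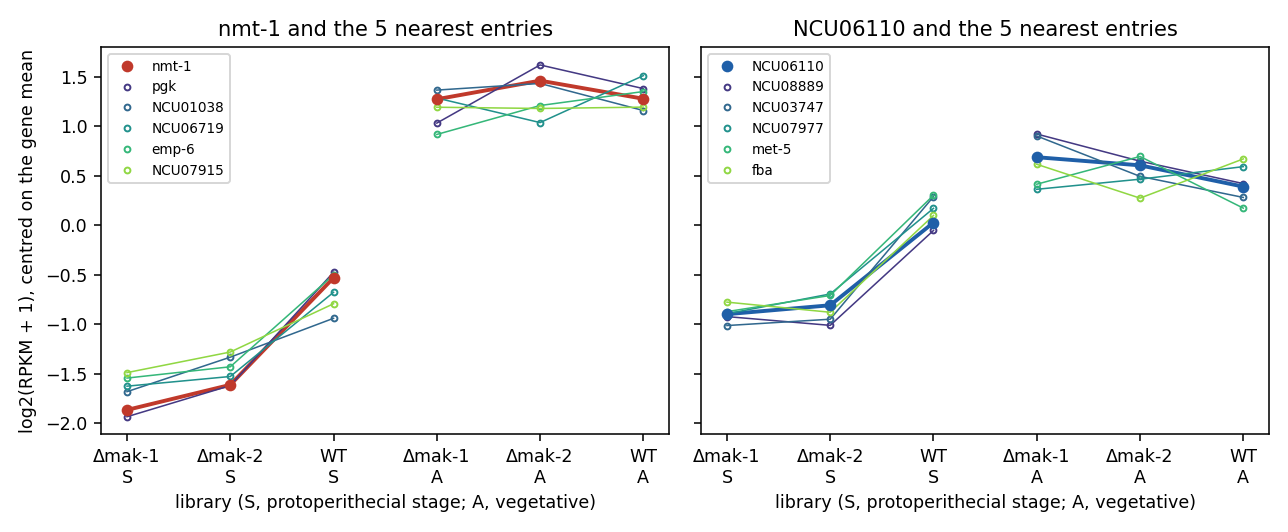
Log2(RPKM + 1) of *nmt-1* (left) and NCU06110 (right), each centred on its mean over the 6 libraries, with the 5 nearest entries as thin lines; S is the protoperithecial stage and A vegetative hyphae, and lines join libraries of 1 stage only to guide the eye. The nearest profiles, those of *pgk* at 0.130 and NCU08889 at 0.133, were chosen for their likeness.

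In the deposited annotation, response to vitamin B1 was given to 2 entries, *nmt-1* and NCU06110, and response to acetate to 16 entries that included *nmt-1* and *cfp*. Of those 16, 5 were called higher and 4 lower in the wild type between the stages, with a median ratio of 1.10, beside 46.5% and 10.3% of all entries. The exon model behind the RPKM was 2614 bases for *nmt-1* and 1756 bases for NCU06110, and RefSeq lists 3 and 4 transcripts for these genes. The table gives 1 value per gene, so the spliced forms that the riboswitches produce cannot be told apart in these levels. On NC12 *nmt-1* lies between NCU09344 (41.1 to 127 RPKM) and NCU16593 (listed as NCU09346, 0.474 to 1.45 RPKM), neither of which overlaps it. NCU06110 overlaps NCU06111 in the annotation, but NCU06111 had only 0.168% to 1.02% as many reads as NCU06110, and its other neighbour, NCU06109, had 0.491 to 1.72 RPKM. The genes next to the 2 thiamine genes were thus at far lower levels in every library.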

How the data were processed

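RNA of Δ*mak-1*, Δ*mak-2* and the wild type at 2 stages was sequenced single-end, 1 library per condition from the mixed RNA of 3 repeats. The submitters' processing notes name CASAVA 1.8, while aligner, counter and genome build were not given in the sources used here. Values are RPKM, which the authors computed from reads, exon length and mapped reads. The 3 deposited ratio columns are the authors' own comparisons and were not used.

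Whole reads were recovered from the steps of the RPKM values for 8912 of 8913 entries above 0 in at least 2 libraries (accepted as whole within 1e-09 of their size or within 1e-06 reads). Recovery was exact for 98.4% of 8837 entries in simulated data. The table held 99.5% to 99.8% of the mapped reads. Intervals of a ratio between libraries are exact (Clopper-Pearson) 95% intervals of the ratio of 2 read counts. Those of a mutant's stage ratio over the wild-type stage ratio are 95% intervals by a normal approximation on the log scale. Reads without molecular identifiers are not independent molecules. With 1 library per condition no test was made. Names and neighbours came from RefSeq (assembly NC12), which matched 8976 entries by locus tag and 185 by an older one, with 711 not matched. Coordinates of this annotation were used only for the order of genes and their overlap, since the build behind the deposited data is not named.

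The members and lists were chosen with earlier results of these data known. Named are *nmt-1*, NCU06110, entries annotated to thiamine or to enzymes of its cofactor, NCU01977, *pdx-1* and *pdx-2*, the 5 nearest profiles of each member, the 10 most abundant entries of wild-type hyphae, neighbours and β-tubulin. Entries annotated to other vitamins were chosen after their values were seen. Alternatives were median-of-ratios scaling, β-tubulin scaling, leaving the members' reads out of the total, adding 1 RPKM, and thresholds of 1.5-fold and 3-fold. The work was done in Python 3.11.15 with scipy 1.17.1, pandas 2.3.3, numpy 2.4.6 and, for plots, matplotlib 3.10.9.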

Additional observations from a re-analysis of the deposited data

Results flagged for a closer look

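NCU06110 stood on opposite sides of the wild type at the 2 stages. Its ratio in Δ*mak-1* over the wild type was 0.527 at the protoperithecial stage and 1.23 in vegetative hyphae, and in Δ*mak-2* it was 0.561 at the protoperithecial stage and 1.16 in hyphae. The ratio of *nmt-1* in Δ*mak-2* over the wild type was 0.473 at the protoperithecial stage and 1.135 in hyphae. These differences between the stages were not tested, since each condition has 1 library. The value of 1.23 was 0.937 with the median of ratios and 0.826 relative to β-tubulin, so the opposite sides of NCU06110 in Δ*mak-1* were not seen with these scalings.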

How the results depend on the processing

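The 14 ratios of *nmt-1* and NCU06110 between the stages and of each mutant over the wild type were computed again. Of these, 12 kept their side of the 2-fold threshold with the median of ratios. All 14 kept it with each of β-tubulin, the members' reads left out of the total and 1 RPKM added. The ratios between the mutants are not among the 14, and that of *nmt-1* in hyphae passed the threshold relative to β-tubulin. With the median of ratios the stage ratios in Δ*mak-1*, Δ*mak-2* and the wild type were 0.0791, 0.0707 and 0.163 for *nmt-1* and 0.232, 0.223 and 0.444 for NCU06110. Δ*mak-1* over the wild type at the protoperithecial stage gave 0.369 and 0.490, and in hyphae *nmt-1* was at 0.760 and 1.08 and NCU06110 at 0.937 and 1.10 in Δ*mak-1* and in Δ*mak-2* over the wild type. Relative to β-tubulin the stage ratios were 0.120, 0.0685 and 0.194 for *nmt-1* and 0.351, 0.216 and 0.528 for NCU06110, the Δ*mak-1* values at the protoperithecial stage 0.413 and 0.549, and those in hyphae 0.670 and 1.35 for *nmt-1* and 0.826 and 1.38 for NCU06110. With the members' reads left out, the stage ratios were 0.108, 0.112 and 0.274 for *nmt-1* and 0.316, 0.353 and 0.746 for NCU06110, and *nmt-1* was at 1.15 in Δ*mak-2* hyphae. Relative to β-tubulin *nmt-1* and NCU06110 in Δ*mak-1* over Δ*mak-2* hyphae were at 0.498 and 0.600. β-tubulin itself had 287, 162 and 193 RPKM in hyphae of Δ*mak-1*, Δ*mak-2* and the wild type. At the protoperithecial stage it had 272, 282 and 284 RPKM in the same order. The shifts relative to β-tubulin follow from these levels. Why these levels differed, and the cause of the other shifts, was not tested. The shares over all entries given above are for 2-fold by mapped reads. The counts that follow, at other scalings and thresholds, have no such share beside them and describe these genes only. Of the 6 thiamine genes, 5 were lower between the stages in each strain with the median of ratios. Relative to β-tubulin 4, 5 and 3 were lower in Δ*mak-1*, Δ*mak-2* and the wild type. At 3-fold, 2 were lower between the stages in Δ*mak-1* and 1 in Δ*mak-2*, and 0 passed for either mutant over the wild type at the protoperithecial stage. At 1.5-fold, 1 was higher in each strain between the stages, 2 were lower in each mutant at the protoperithecial stage, and 1 was higher and 1 lower in Δ*mak-2* hyphae. In Δ*mak-1* over the wild type, 2 were lower at the protoperithecial stage with the median of ratios, and in hyphae 0 were higher at 3-fold or with either scaling, and 1 was lower relative to β-tubulin, by which 1 was also higher between the stages. By correlation in place of distance, 2 of the 5 profiles nearest to *nmt-1* and 1 of the 5 nearest to NCU06110 were shared. No paired analysis was possible because each condition has 1 library, which is also why no difference could be set against the spread between cultures.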

Other observations

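The deposited annotation placed 50 entries in pathways of other vitamins, a list chosen after its values were seen. Between the stages, of 45 of them above the 10 RPKM minimum in Δ*mak-1*, 13 were called higher and 6 lower (median ratio 1.25), where 32.6% and 9.48% of all entries were called. In Δ*mak-2* 17 of 47 were higher and 5 lower (1.59), beside 41.4% and 9.41%, and in the wild type 19 of 45 were higher and 5 lower (1.74), beside 46.5% and 10.3%. These counts lay near the shares over all entries, and the medians over all entries were 1.42, 1.69 and 1.86 in the same order.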
